A study of Mus musculus with 2 samples.

Results

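The genes described here are the heat shock proteins and the J-domain co-chaperones of the mouse, measured by RNA sequencing of single hippocampal nuclei. Members were chosen by a rule on their symbols, with earlier results of these data known. They are all genes in the count matrices whose symbols begin with Hspa, Hspb, Hspd, Hspe, Hsph, Hsp90, Dnaja, Dnajb or Dnajc, together with *Cryab*, without antisense genes and pseudogenes. This gave 75 members among the 32285 genes counted. All 75 were detected in both libraries, 67 had at least 100 unique molecular identifiers (UMIs) over both libraries, and 8 had fewer. The symbols also bring in 3 genes that are not small heat shock proteins although their symbols begin with Hspb (*Hspb11*, *Hspbap1* and *Hspbp1*), and these are given as a group of their own.

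Chaperones of these families bind proteins that are unfolded or partly folded and help them fold, assemble or be degraded. HSP70 proteins hold their clients in cycles of ATP hydrolysis, J-domain proteins deliver the clients and start the hydrolysis, HSP110 proteins exchange the nucleotide, and HSP90 proteins act later on a narrower set of clients that includes kinases and steroid receptors. Small heat shock proteins keep unfolded proteins soluble without ATP, and HSP60 and HSP10 form the folding chamber of mitochondria. Part of the group is induced by the transcription factor HSF1 when unfolded proteins accumulate, and several members are known to bind tau.

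The study compared 9-month-old male PS19 mice, labelled PS19 Zbp1-WT (PS19), with PS19 mice lacking *Zbp1*, labelled PS19 Zbp1-KO (PZKO). The strain of both is given as PS19 ZBP1. Mice of both groups carry the PS19 transgene, a mutant human tau that the prion protein promoter drives mainly in neurons. Mice without the transgene were not analysed here. Hippocampi were pooled, which gave 1 library per genotype, and genotype and library cannot be told apart. The methods also say that animals were processed individually, but the counts carry no label for the animal. No test between genotypes was therefore made. Every log2 ratio of PZKO over PS19 has a 95% interval that covers counting error only, and differences between animals are not in it.

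The PS19 library held 11469 nuclei with a median of 5642 UMIs, and the PZKO library 10920 nuclei with a median of 8342.5 UMIs, 1.48 times as many. After filtering and removal of doublets, 9590 and 9307 nuclei were kept, in which *Zbp1* had 92 UMIs in PS19 and 38 in PZKO (0.915 and 0.25 CPM, the UMIs of a gene divided by all UMIs of the library or class and scaled to counts per mega-UMI). The libraries shared 47 nuclear barcodes, 29 of them among the nuclei kept. Nuclei were grouped by marker genes into 11 classes, and 5.14% and 4.80% of nuclei stayed unnamed. A cluster named Cajal-Retzius cells (28 PS19 and 30 PZKO nuclei) was under the minimum of 50 nuclei per library. It is in neither of these groups. *Ttr*, which choroid plexus cells express, stood at 788 CPM in PS19 microglia and 95.6 CPM in PZKO microglia, and was also lower in PZKO in the other classes compared in detail. Ribosomal protein genes and mitochondrially encoded genes, whose RNA is mostly outside the nucleus, were lower in PZKO in most classes. In microglia their median log2 ratios were −0.45 and −0.58, in excitatory neurons −0.47 and −0.71, and in endothelial cells −0.01 and −0.01. Their part in the differences of the chaperone genes was not tested.

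The start regions of some members hold the sequence HSF1 is known to bind, the heat shock element, which is built of repeated GAA units in alternating direction. Examples of these sequences are shown because they mark a candidate element next to the start of a member. RefSeq promoter windows of the build GRCm38.p6 (mm10), from 250 bases before to 50 bases after each start, were matched to 60 of the 75 members by symbol. A pair of units on either strand (GAANNTTC or TTCNNGAA, counted once where they overlap) lay in 23.4% of 77 member windows and in 15.1% of all 32851 windows. A run of 3 units (GAANNTTC followed by NNGAA, or TTCNNGAA followed by NNTTC) lay in 7.79% of member windows and 0.603% of all windows, and the members that held it were *Dnajb6*, *Hspd1*, *Hspe1* and *Hsph1*. *Dnajb6* and *Hsph1* each count with 2 windows here. By gene, 6.67% of the matched members and 0.662% of all genes held the run. A match describes these letters only and is not evidence of binding. *Cryab*, *Hsp90aa1*, *Hsp90ab1* and *Hspa8* were among the members without a matched window. A pair was held by 16 of the 60 matched members, and only some of them are shown. The lines below give 30 bases around the match in capitals, 5′ to 3′ on the strand of the gene. *Hspd1* and *Hspe1*, which lie head to head, share 1 element read from opposite strands, and the windows of *Hspa1a* and *Hspa1b* are identical.
*Hspe1* (chr1:55088053-55088082, + strand): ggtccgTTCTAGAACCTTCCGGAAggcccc
*Hspd1* (chr1:55088053-55088082, − strand): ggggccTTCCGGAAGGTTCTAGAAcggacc
*Dnajb6* (chr5:29735844-29735873, + strand): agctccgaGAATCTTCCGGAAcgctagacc
*Dnaja1* (chr4:40722333-40722362, + strand): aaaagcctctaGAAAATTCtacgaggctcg
*Hspb1* (chr5:135887811-135887840, + strand): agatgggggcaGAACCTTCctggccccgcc
*Hspa1a* (chr17:34972242-34972271, − strand): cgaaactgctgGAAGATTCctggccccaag
*Hspa1b* (chr17:34959324-34959353, − strand): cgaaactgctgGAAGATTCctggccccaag

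Several members marked single classes, and they did so in both libraries. Levels are compared between classes for 1 gene at a time, in CPM of the summed UMIs of a class. Of the 43 members with at least 100 UMIs in the class where they were highest, 12 were highest in endothelial cells, 9 in ependymal cells, 9 in microglia, 5 in choroid plexus cells, 4 in oligodendrocytes, 2 in excitatory neurons and 2 in vascular and leptomeningeal cells (VLMC). The class was the same in both libraries for 38 of the 43, and in 14 of the 43 the highest class stood at 3 times the median class or more. Members highest in a class with few UMIs, such as pericytes, drop out of this tally. The share of all genes highest in each class was not counted, so the tally cannot be set against that of other genes.

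Endothelial cells stood apart by *Hspb1* and *Hspa12b*. *Hspb1* encodes HSP27, a small heat shock protein that also acts on actin filaments. It had 251 CPM in PS19 endothelial cells and 258 CPM in PZKO endothelial cells, against 0.601 and 0.182 CPM in excitatory neurons. *Hspa12b*, a divergent HSP70 relative known from endothelial cells, had 254 and 252 CPM in that class. VLMC were next for *Hspa12b*, at 31.8 and 25.3 CPM (16 and 33 UMIs). Choroid plexus cells had 1.30 and 2.45 CPM, which rest on 3 UMIs in each library. In neither gene did the libraries differ by more than counting error in endothelial cells, with log2 ratios of 0.04 (−0.20 to 0.27) and −0.01 (−0.25 to 0.23).

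Ependymal cells, which carry motile cilia, held the highest levels of *Dnajb13*, *Dnaja4*, *Hspa4l* and *Hsph1*. *Dnajb13*, a J-domain protein of the radial spokes of cilia, had 31 PS19 UMIs and 24 PZKO UMIs in ependymal cells (36.6 and 31.3 CPM), against 8.23 and 12.3 CPM in choroid plexus cells. *Dnaja4* had 105 and 106 CPM in ependymal cells against 17.9 and 14.8 CPM in excitatory neurons. *Hsph1*, which encodes HSP105, had 256 and 213 CPM in ependymal cells against 57.9 and 49.8 CPM in excitatory neurons. Choroid plexus cells were the next highest class for *Dnaja4* (39.0 and 36.8 CPM) and *Hsph1* (103 and 64.6 CPM). *Dnajb13* had too few UMIs for a comparison of the libraries here. *Dnaja4* and *Hsph1* did not differ between the libraries beyond counting error in ependymal cells. *Hspa4l*, an HSP110 protein also abundant in testis, did, with 393 CPM in PS19 and 265 CPM in PZKO (−0.57, −0.83 to −0.31).

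Oligodendrocytes were the class with the highest *Cryab* and *Dnajb2*. *Cryab* encodes αB-crystallin, a small heat shock protein of the lens, muscle and myelinating glia, and had 216 CPM in PS19 and 114 CPM in PZKO oligodendrocytes, against 10.4 and 3.56 CPM in excitatory neurons. *Dnajb2*, a J-domain protein that sends ubiquitinated clients to the proteasome, had 369 and 344 CPM in oligodendrocytes, against 23.7 and 23.7 CPM in excitatory neurons. The next highest classes were pericytes for *Cryab* (57.0 and 30.9 CPM) and ependymal cells for *Dnajb2* (153 and 141 CPM). Microglia had the highest *Dnajb14*, a J-domain protein anchored in the membrane of the endoplasmic reticulum (ER), with 271 and 230 CPM against 61.7 and 46.4 CPM in excitatory neurons. Pericytes were next for *Dnajb14*, at 79.8 and 105 CPM (21 and 34 UMIs). For *Cryab*, *Dnajb2* and *Dnajb14* excitatory neurons were the lowest class. *Hspb3*, a small heat shock protein best known from muscle, was low everywhere, and microglia held 38 PS19 UMIs and 31 PZKO UMIs (11.7 and 9.26 CPM), against 1.17 and 1.04 CPM in excitatory neurons.

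**Figure D1:**
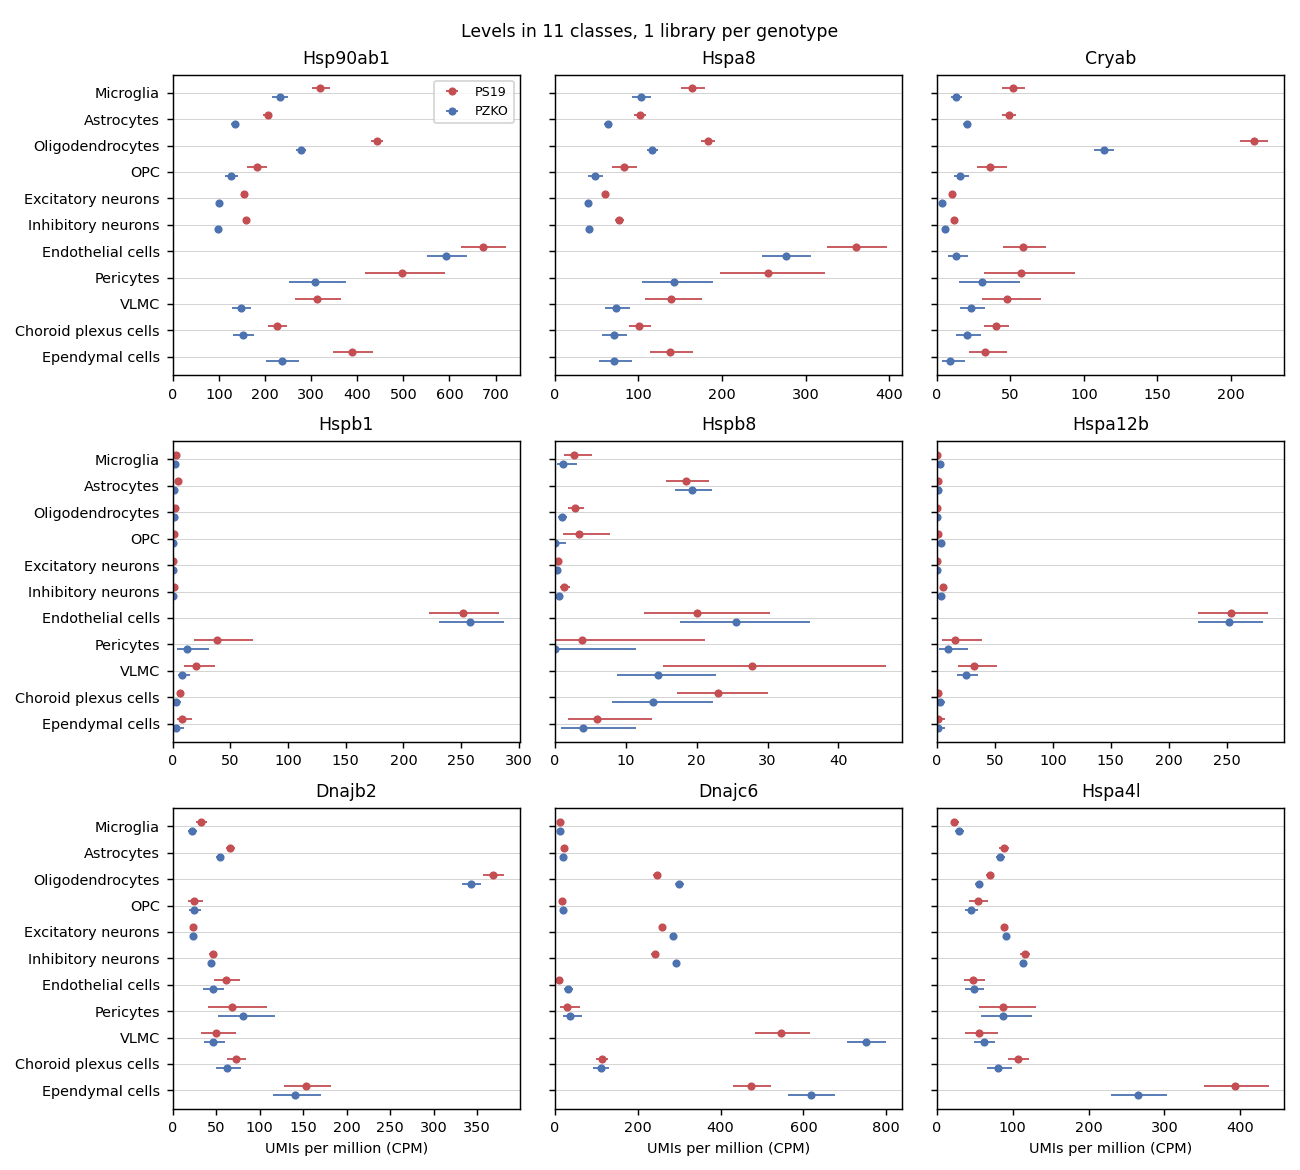
Levels of 9 chaperone genes (CPM of summed UMIs, linear axes that start at 0 and differ between genes) in the 11 named cell classes, with 1 point for the PS19 library (red) and 1 for the PZKO library (blue) and bars for exact Poisson 95% intervals. Hspb1 and Hspa12b stand near 250 CPM in endothelial cells in both libraries, while Cryab is highest in oligodendrocytes and lower in PZKO.

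The comparison of PZKO with PS19 asks how the chaperone genes differ in each class when *Zbp1* is absent. As counted, the cytosolic *Hsp90ab1*, *Hsp90aa1* and *Hspa8* were lower in PZKO in nearly all classes, and the DNAJC genes stood on both sides of 0. For the 47 members with at least 100 UMIs in 5 or more classes, 12 had a log2 ratio below 0 in every class tested, where 15.1% of the 8890 genes with that many UMIs did, and 0 had one above 0 in every class tested (all genes 4.95%). The interval lay below 0 in at least 5 classes for 13 of the 47 (all genes 8.04%).

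All 3 HSP90 genes were lower in PZKO as counted, and for the cytosolic pair the direction in some classes depended on an alternative. *Hsp90ab1*, the constitutive cytosolic HSP90 (ENSMUSG00000023944, chr17:45567775-45573271), had 443 CPM in PS19 and 278 CPM in PZKO oligodendrocytes (4119 and 2908 UMIs, log2 ratio −0.67, −0.74 to −0.60). In excitatory neurons it had 154 and 100 CPM (−0.62, −0.66 to −0.58), and in microglia 320 and 232 CPM (−0.46, −0.60 to −0.33). The ratio was below 0 in all 11 classes, and the interval too, from −1.08 in VLMC to −0.18 in endothelial cells. *Hsp90aa1*, the cytosolic HSP90 that is induced by heat, had 336 and 212 CPM in oligodendrocytes (−0.67, −0.74 to −0.59), and its interval lay below 0 in 9 of 11 classes. Its ratio was lowest in ependymal cells, its class of highest mean CPM, at 529 CPM in PS19 and 219 CPM in PZKO (−1.27, −1.53 to −1.01). *Hsp90b1*, the HSP90 of the ER (GRP94), had 369 and 257 CPM in microglia (−0.52, −0.65 to −0.40) and 178 and 115 CPM in astrocytes (−0.64, −0.75 to −0.53). In endothelial cells, where ribosomal protein genes were near 0, the ratios of the 3 genes were −0.18, −0.18 and −0.24. The alternative subtracts the RNA profile of an unnamed cluster with few UMIs (described with *Cryab* below). After it *Hsp90ab1* stood at 0.17 in microglia and *Hsp90aa1* at 0.72 in microglia and 0.51 in astrocytes. *Hsp90b1* was below 0 in microglia, astrocytes, oligodendrocytes and excitatory neurons (−0.47 to −0.24). These values have no interval, and the share of UMIs subtracted was larger in PS19 than in PZKO.

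Among the HSP70 genes, *Hspa8* and *Hspa5* were lower in PZKO and the divergent *Hspa12a* was higher. *Hspa8*, the constitutive cytosolic HSP70 (HSC70) that also uncoats clathrin vesicles, had 165 CPM in PS19 and 103 CPM in PZKO microglia (537 and 345 UMIs, −0.68, −0.88 to −0.48). In excitatory neurons it had 60.1 and 39.6 CPM (−0.60, −0.67 to −0.53) and in inhibitory neurons 77.0 and 41.0 CPM (−0.91, −1.05 to −0.77). The interval of *Hspa8* was below 0 in all 11 classes, with ratios from −0.97 in ependymal cells to −0.38 in endothelial cells. *Hspa5*, the HSP70 of the ER (BiP) and a target of the unfolded protein response, had 91.7 and 50.5 CPM in astrocytes (−0.86, −1.02 to −0.70). It had 143 and 102 CPM in microglia (−0.48, −0.69 to −0.28), and in endothelial cells, at 188 and 172 CPM, its interval held 0 (−0.13, −0.41 to 0.15). *Hspa9*, the mitochondrial HSP70 (mortalin), had 52.4 and 41.1 CPM in excitatory neurons (−0.35, −0.42 to −0.28). *Hspa2*, a member best known from testis, was low in excitatory neurons, at 3.18 and 1.74 CPM (185 and 162 UMIs, −0.87, −1.18 to −0.56).

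*Hspa12a*, a divergent HSP70 relative of the brain, went the other way. It had 81.1 CPM in PS19 and 101 CPM in PZKO excitatory neurons (4725 and 9421 UMIs, 0.32, 0.27 to 0.37), and 66.3 and 87.1 CPM in inhibitory neurons (0.39, 0.27 to 0.52). Within excitatory neurons the ratio was 0.05 (−0.08 to 0.19) in dentate granule cells, 0.19 (0.05 to 0.32) in CA1 and 0.36 (0.20 to 0.52) in CA3. Of the HSP110 genes, *Hspa4* had 96.0 and 87.4 CPM in excitatory neurons (−0.14, −0.19 to −0.09) and *Hsph1* 57.9 and 49.8 CPM (−0.22, −0.28 to −0.15). In oligodendrocytes *Hsph1* had 79.0 and 54.3 CPM (−0.54, −0.70 to −0.38). After the same subtraction *Hsph1* stood at 1.58 in microglia, 0.45 in astrocytes and 0.03 in oligodendrocytes. In microglia the subtraction took most of the PS19 *Hsph1* UMIs, and no interval is given.

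The stress-inducible HSP70 genes *Hspa1a* and *Hspa1b* were close to the limit of detection. They are near-identical copies on chromosome 17, so that the split of UMIs between them is uncertain. Over all nuclei kept, *Hspa1a* had 144 PS19 UMIs and 76 PZKO UMIs (1.43 and 0.499 CPM), and *Hspa1b* 136 and 61 UMIs (1.35 and 0.401 CPM). In no named class did either reach 100 UMIs. Of the PS19 UMIs, 25.7% for *Hspa1a* and 20.6% for *Hspa1b* came from 1 unnamed cluster that held 3.44% of the nuclei, and in PZKO the shares were 2.63% and 6.56% from 2.60% of the nuclei.

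The chaperonin pair of mitochondria was lower in PZKO. *Hspd1* (HSP60) and *Hspe1* (HSP10) lie head to head on chromosome 1, and the annotated genes overlap at their starts on opposite strands. *Hspd1* had 64.1 CPM in PS19 and 40.7 CPM in PZKO oligodendrocytes (−0.65, −0.84 to −0.47), 49.4 and 38.1 CPM in astrocytes (−0.38, −0.58 to −0.17) and 31.1 and 25 CPM in excitatory neurons (−0.31, −0.40 to −0.22). *Hspe1* had 45.6 and 28.5 CPM in oligodendrocytes (−0.68, −0.90 to −0.46) and 26.1 and 16.3 CPM in excitatory neurons (−0.67, −0.78 to −0.57). Its interval lay below 0 in 7 of 8 classes tested. In microglia, the exception, it had 53.7 and 44.8 CPM (−0.26, −0.58 to 0.06).

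Among the small heat shock proteins only *Cryab* had enough UMIs to be compared in more than 1 class. *Cryab* (ENSMUSG00000032060, chr9:50751325-50756636, + strand) had 168 PS19 UMIs and 43 PZKO UMIs in microglia (51.5 and 12.8 CPM, −2.0, −2.52 to −1.51). In astrocytes it had 49.0 and 20.3 CPM (−1.27, −1.51 to −1.03) and in oligodendrocytes 216 and 114 CPM (2006 and 1188 UMIs, −0.93, −1.03 to −0.82). Excitatory neurons had 606 and 332 UMIs (10.4 and 3.56 CPM, −1.55, −1.74 to −1.35), with ratios of −1.98 in dentate granule cells and −1.24 in CA1. *Cryab* was past 1.5-fold lower in all 6 classes in which it was tested, and the ratio was nearest to 0 in oligodendrocytes, where the level was highest. The neighbouring *Hspb2* (chr9:50751078-50752354, − strand) overlaps the start of *Cryab*, and whether reads of the overlap were shared was not tested.

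The ratios of *Cryab* outside oligodendrocytes depended on 1 alternative, added after the data had been seen. It subtracts, in each class and library, the RNA profile of an unnamed cluster with few UMIs (330 PS19 and 242 PZKO nuclei), scaled so that no *Ttr* is left. The share of UMIs to subtract was unequal, and larger in PS19 in each class compared in detail, oligodendrocytes included. It was 0.144 in PS19 and 0.0397 in PZKO microglia, 0.0746 and 0.0207 in astrocytes, and 0.0306 and 0.00744 in excitatory neurons. The part of this inequality in the shifted ratios was not tested. Under this alternative the log2 ratio of *Cryab* was 0.38 in microglia, −0.58 in astrocytes, −0.78 in oligodendrocytes and 1.98 in excitatory neurons. That this cluster and the *Ttr* outside choroid plexus cells are free RNA was assumed and not tested. For the other small heat shock proteins the depth allowed a comparison in 1 class or in none. *Hspb8*, a partner of BAG3 in selective autophagy, had 18.5 CPM in PS19 and 19.4 CPM in PZKO astrocytes (150 and 215 UMIs, 0.07, −0.24 to 0.38). *Hspb6* (HSP20) had 42 and 29 UMIs in astrocytes, too few for a comparison here.

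**Figure D2:**
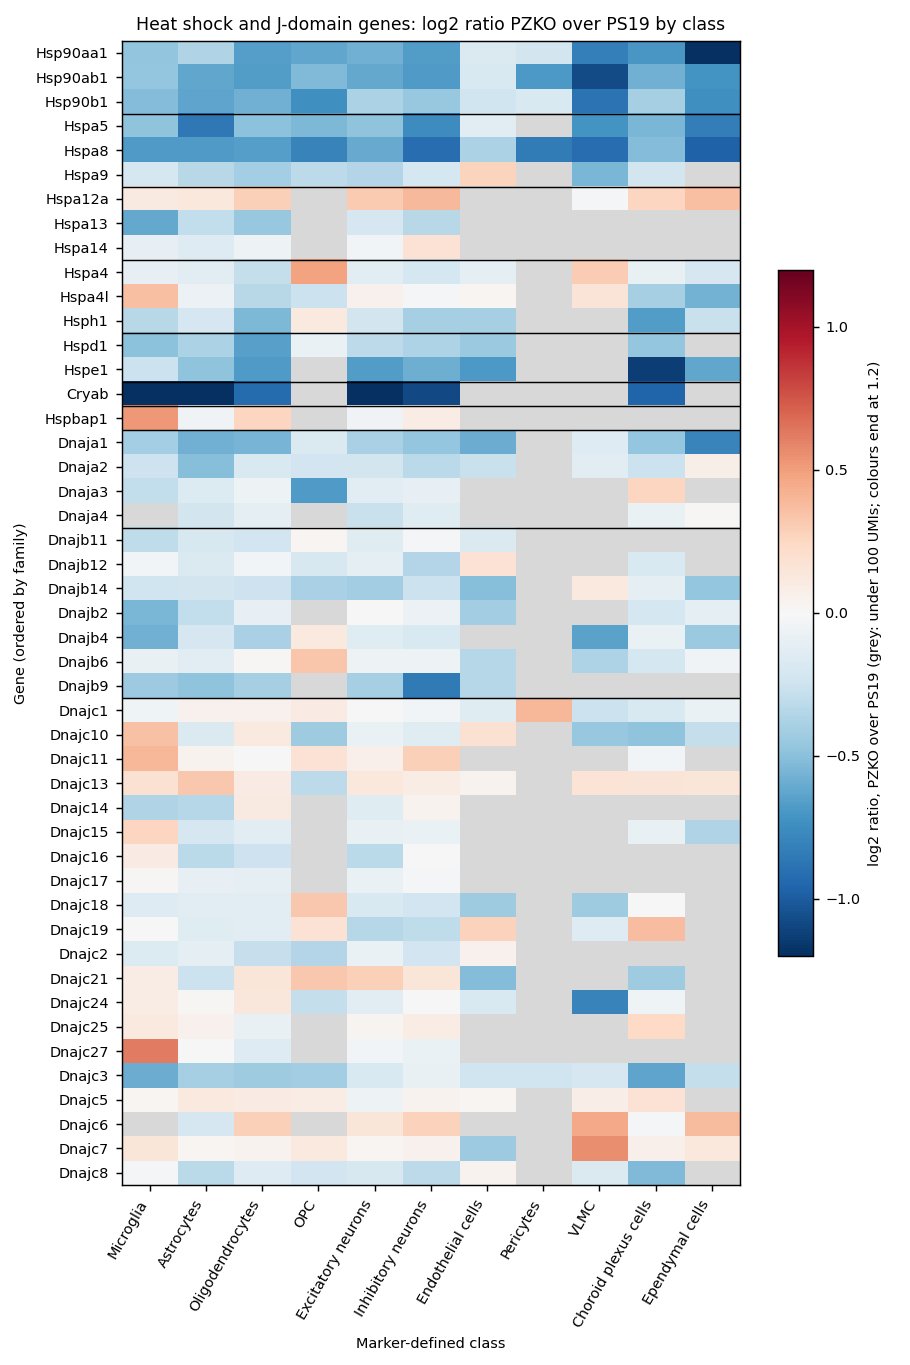
Log2 ratio of PZKO over PS19 (colour) by cell class of the 47 chaperone genes tested in at least 5 classes, with grey where a gene had fewer than 100 UMIs in a class. The cytosolic HSP90 and HSP70 genes Hsp90ab1 and Hspa8 are below 0 in all 11 classes and Cryab in all 6 in which it was tested, while Dnajc6 and Hspa12a are mostly above 0.

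The DNAJA and DNAJB genes, which encode the J-domain proteins built most like bacterial DnaJ, were mostly lower in PZKO. All DNAJA genes tested were below 0 in microglia (3 of 3), astrocytes (4 of 4), oligodendrocytes (4 of 4) and excitatory neurons (4 of 4). For such counts, here and for the families below, the share of all genes below 0 is not given. The medians of all genes in these classes, given below, were themselves below 0. *Dnaja1*, the main cytosolic J-domain partner of HSC70, had 337 CPM in PS19 and 223 CPM in PZKO endothelial cells (−0.59, −0.82 to −0.37) and 112 and 85.5 CPM in excitatory neurons (−0.39, −0.44 to −0.34). *Dnaja2* had 105 and 73.3 CPM in astrocytes (−0.51, −0.65 to −0.37).

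Of the DNAJB genes, 7 of 7 were below 0 in microglia, 8 of 8 in astrocytes, 8 of 9 in oligodendrocytes and 7 of 9 in excitatory neurons. *Dnajb1* (HSP40), which is induced with *Hspa1a*, had 11.3 CPM in PS19 and 7.46 CPM in PZKO oligodendrocytes (105 and 78 UMIs, −0.60, −1.04 to −0.16). In excitatory neurons it had 4.79 and 4.52 CPM (−0.08, −0.31 to 0.14). *Dnajb9*, an ER J-domain protein that is a target of the unfolded protein response, had 12.9 and 7.19 CPM in inhibitory neurons (−0.85, −1.19 to −0.51). *Dnajb6*, known to keep polyglutamine proteins soluble, had 86.9 and 83.1 CPM in excitatory neurons (−0.07, −0.12 to −0.01), and its interval held 0 in microglia, astrocytes and oligodendrocytes. *Dnajb6*, *Hspd1*, *Hspe1* and *Hsph1* are the members with a run of 3 heat shock units. Their ratios in oligodendrocytes were 0.02, −0.65, −0.68 and −0.54. A relation of the ratio to the element was not tested.

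The DNAJC genes, the largest family, stood on both sides of 0. In microglia 12 of 19 were above 0 and 7 below, in oligodendrocytes 10 of 23 were above 0, in astrocytes 8 of 24 and in excitatory neurons 6 of 25. *Dnajc6* (auxilin), which recruits HSC70 to clathrin coats in neurons, had 259 CPM in PS19 and 286 CPM in PZKO excitatory neurons (15063 and 26610 UMIs, 0.14, 0.11 to 0.17). It had 242 and 293 CPM in inhibitory neurons (0.28, 0.21 to 0.34) and 247 and 300 CPM in oligodendrocytes (0.28, 0.21 to 0.36). Its interval lay above 0 in 5 of 7 classes. In the same excitatory neurons its partner *Hspa8* was lower, as given above.

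*Dnajc13*, an endosomal J-domain protein, had 97.8 and 122 CPM in astrocytes (0.32, 0.19 to 0.45) and 243 and 276 CPM in microglia (0.18, 0.04 to 0.32), and in OPC (oligodendrocyte progenitor cells) 120 and 96.4 CPM (−0.31, −0.60 to −0.02). *Dnajc5*, the cysteine string protein of synaptic vesicles, had 75.3 and 72.2 CPM in excitatory neurons, a log2 ratio of −0.06. *Dnajc1*, an ER J-domain protein that spans a long gene, had 319 and 331 CPM in astrocytes (0.05, −0.02 to 0.13) and 333 and 321 CPM in microglia (−0.05, −0.18 to 0.07). *Dnajc3* (p58IPK), an ER co-chaperone of BiP that also restrains the kinase PERK, was lower in microglia, with 110 and 72.9 CPM (−0.60, −0.84 to −0.36), and in astrocytes, with 153 and 116 CPM (−0.40, −0.51 to −0.29). In inhibitory neurons it had 33.2 and 31.2 CPM (−0.09, −0.27 to 0.10).

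Of the 4 classes compared in detail, microglia held the members with the highest ratios as point values, and had the fewest UMIs. Ranked by the interval's end closer to 0, members of the other classes stood higher than any in microglia. These were *Hspa12a* (0.27) and *Dnajc21* (0.22) in excitatory neurons, *Dnajc6* in oligodendrocytes (0.21) and *Dnajc13* in astrocytes (0.19). *Dnajc27*, which carries a Rab-like GTPase domain beside its J domain, had 50 PS19 UMIs and 79 PZKO UMIs in microglia (15.3 and 23.6 CPM, 0.62, 0.09 to 1.16). *Hspbap1*, which binds HSP27, had 105 and 155 UMIs (32.2 and 46.3 CPM, 0.52, 0.16 to 0.90), and *Dnajc11*, of the mitochondrial inner membrane organizing system, 123 and 167 UMIs (37.7 and 49.9 CPM, 0.40, 0.06 to 0.75). These 3 genes were near 0 in excitatory neurons, with ratios of −0.03, −0.05 and 0.06. Higher values were not limited to microglia, as *Hspbap1* was above 0 in oligodendrocytes too (247 and 332 UMIs, 0.26, 0.01 to 0.50). The interval lay above 0 in 2 of 5 classes tested for *Hspbap1*, 2 of 7 for *Dnajc11* and 1 of 5 for *Dnajc27*.

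**Figure D3:**
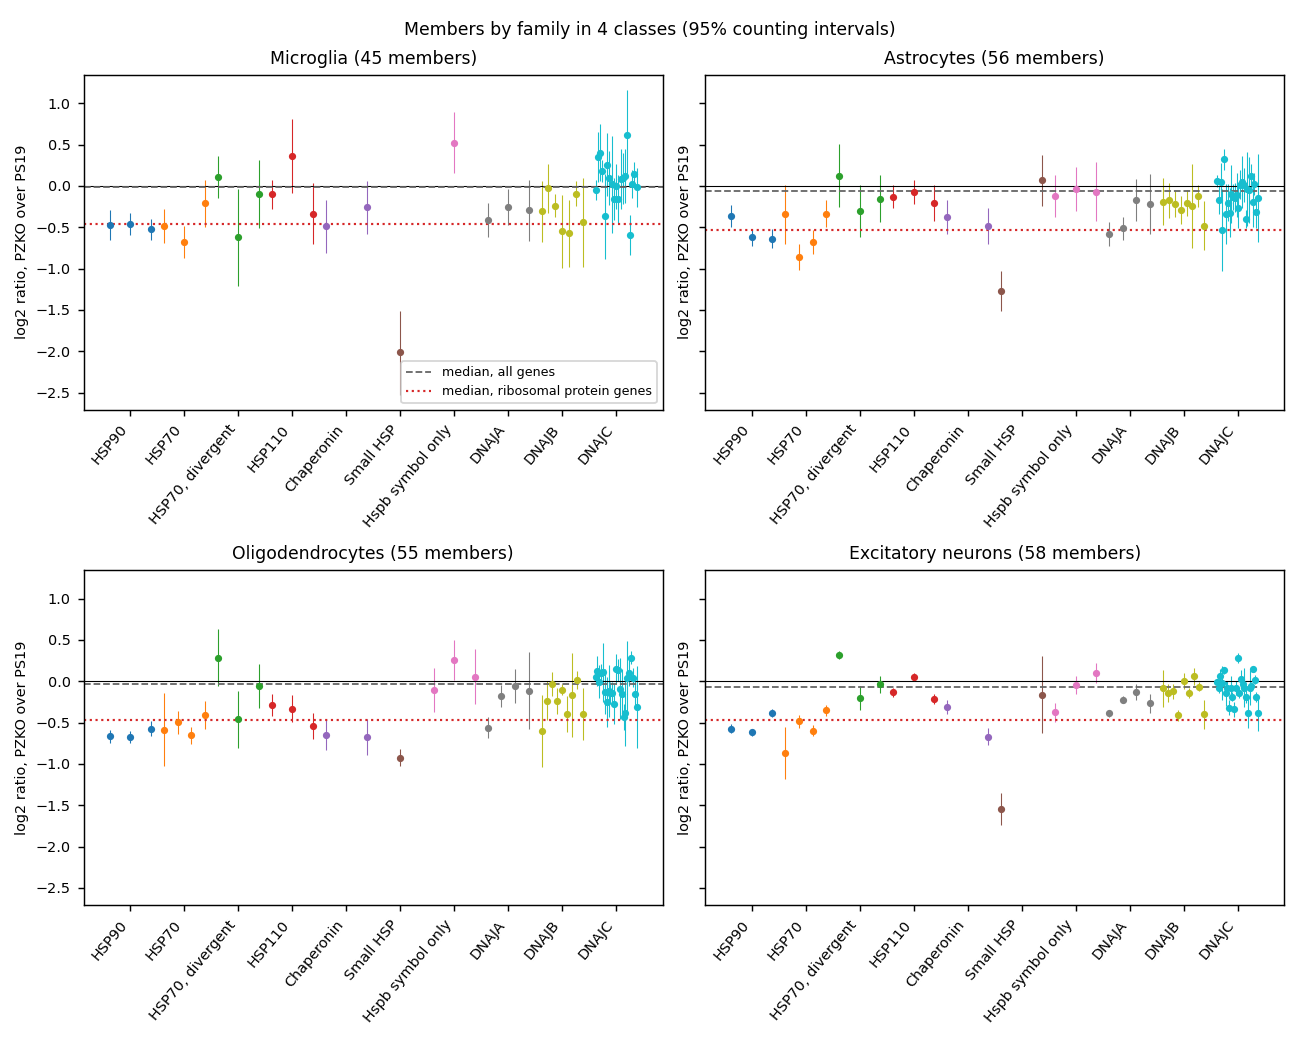
Log2 ratio of PZKO over PS19 of each chaperone gene with at least 100 UMIs, by family, in microglia, astrocytes, oligodendrocytes and excitatory neurons, 1 point per gene with its 95% counting interval, and lines at the medians of all genes (dashed) and ribosomal protein genes (dotted). As counted, all tested HSP90, HSP70 (the divergent genes apart), chaperonin and DNAJA genes are below 0 in these 4 classes, and the DNAJC genes spread over both sides of 0.

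Past a difference of 1.5-fold there were few members. In microglia 4 of 45 tested members were lower by 1.5-fold or more (*Cryab*, *Hspa8*, *Hspa13* and *Dnajc3*), where 3.81% of all tested genes were. The 1 member higher by as much was *Dnajc27*, where 2.06% of all genes were, and it was under 1.5-fold when doublets were kept. In astrocytes 5 of 56 were lower (*Cryab*, *Hspa5*, *Hspa8*, *Hsp90ab1* and *Hsp90b1*, all genes 6.07%) and 0 higher (all genes 1.33%). In oligodendrocytes 8 of 55 were lower (*Cryab*, *Hsp90aa1*, *Hsp90ab1*, *Hspa8*, *Hspd1*, *Hspe1*, *Hspa2* and *Dnajb1*, all genes 5.0%) and 0 higher (1.37%). In excitatory neurons 5 of 58 were lower (*Cryab*, *Hspa2*, *Hspe1*, *Hsp90ab1* and *Hspa8*, all genes 5.02%) and 0 higher (2.39%). As shares of the members tested these are 8.89% in microglia, 8.93% in astrocytes, 14.5% in oligodendrocytes and 8.62% in excitatory neurons, above the shares of all genes in each class and closest to them in astrocytes.

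The median log2 ratio of the tested members was −0.16 in microglia (30 of 45 below 0), −0.19 in astrocytes (46 of 56), −0.16 in oligodendrocytes (41 of 55) and −0.14 in excitatory neurons (47 of 58). Over all genes tested the medians were −0.02, −0.06, −0.04 and −0.07, and the share of all genes below 0 is not given. The counts past 1.5-fold depended on the setting. For the other settings the share of all genes past 1.5-fold is not given, so their counts cannot be set against all genes. With no minimum of UMIs 10, 10, 15 and 12 members were lower by as much in microglia, astrocytes, oligodendrocytes and excitatory neurons, and with the profile of all barcodes subtracted 26 were in astrocytes. There the share of UMIs to subtract was large and unequal, at 0.573 in PS19 and 0.778 in PZKO. With DESeq2 size factors 2, 2, 3 and 2 members were lower by 1.5-fold or more in these classes. Without the profile of the cluster with few UMIs they were 0, 1, 1 and 0, with 5, 1, 2 and 1 members higher by as much, and the medians were −0.03, −0.12, −0.03 and −0.09. Under it *Hspa5* in astrocytes (−0.74) and *Cryab* in oligodendrocytes (−0.78) were the members still lower by 1.5-fold.

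**Figure D4:**
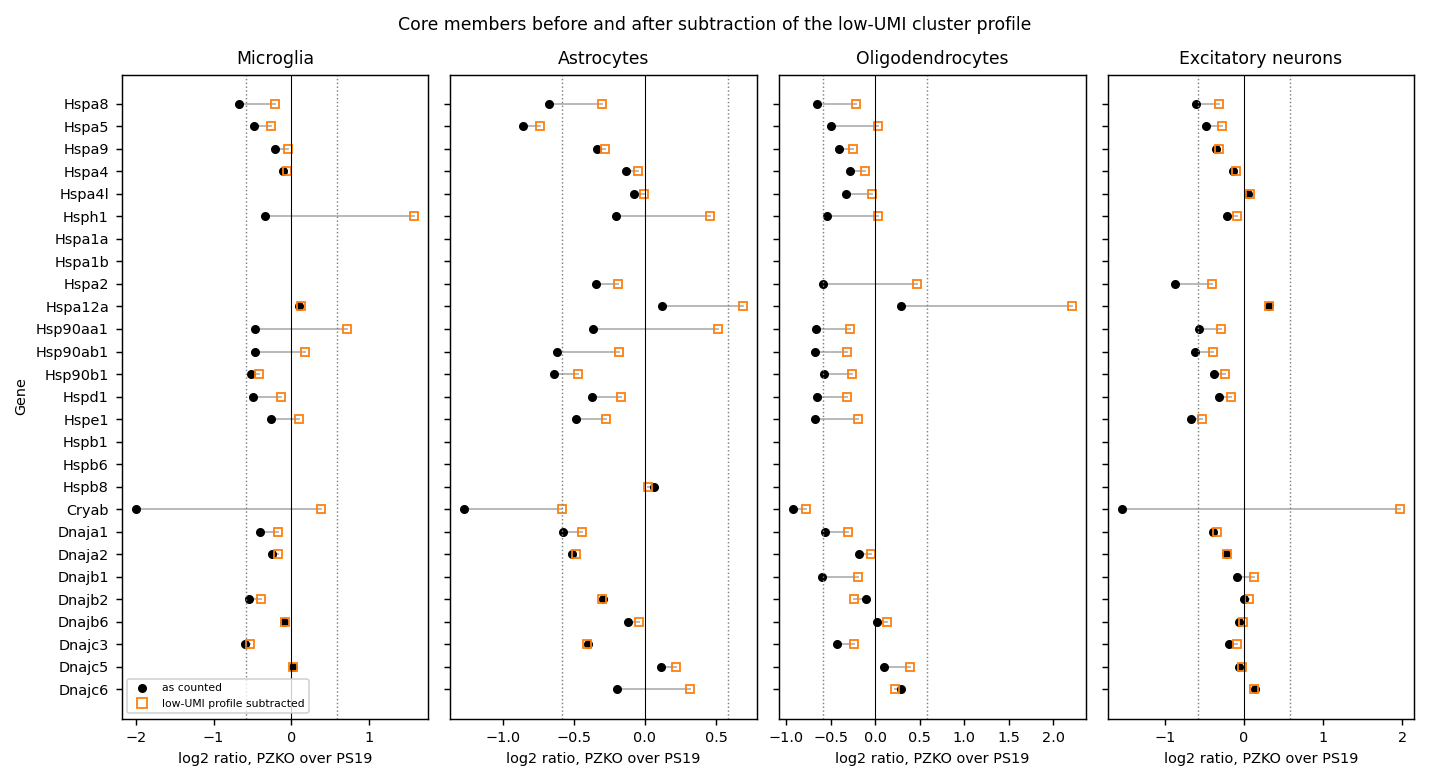
Log2 ratio of PZKO over PS19 (horizontal axis, scaled for each class) of core chaperone genes as counted (black points) and after subtraction of the profile of the unnamed cluster with few UMIs (open squares), in the 4 classes compared in detail. Dotted lines mark 1.5-fold, and genes under 100 UMIs before the subtraction are left out. Cryab moves from −2.0 to 0.38 in microglia, where few of its PS19 UMIs are left after the subtraction.

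The cluster itself held chaperone RNA at high levels. Its leading genes included *Ttn* and *Ttr*, and its median UMI count was 0.115 times that of the library, averaged over both libraries. There *Hsp90ab1* had 1175 CPM in PS19 and 1153 CPM in PZKO (−0.03, −0.23 to 0.17), against 320 and 232 CPM in microglia. *Hsp90aa1* had 924 and 894 CPM (−0.05, −0.28 to 0.18) and *Hspa8* 538 and 517 CPM (−0.06, −0.36 to 0.24). These 3 genes, lower in PZKO in the named classes, stood at the same level in both libraries within counting error. *Cryab* did not, with 157 and 34 UMIs (319 and 122 CPM, −1.38, −1.96 to −0.84).

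The remaining classes held fewer UMIs. Over all 11 classes, *Hspa8* was lower by 1.5-fold or more in 9, *Hsp90ab1* in 7 and *Hsp90aa1* in 6. In inhibitory neurons 9 of 57 members were lower by 1.5-fold or more (all genes 5.30%) and 0 higher (1.78%), and the median was −0.14. The 9 were *Hspa8*, *Hspa5*, *Hsp90aa1*, *Hsp90ab1*, *Hspe1*, *Cryab*, *Dnajb1*, *Dnajb9* and *Dnajc9*, and mitochondrially encoded genes had a median of −1.2 in the same nuclei. In endothelial cells 2 of 33 were lower, *Dnaja1* and *Hspe1* (all genes 2.68%), and 0 higher (2.84%), with a median of −0.18. Of OPC members, 4 of 31 were lower (5.49%), and of choroid plexus members 5 of 37 (5.12%). Of VLMC members 7 of 25 were lower (7.01%), of ependymal members 7 of 24 (4.60%), and of pericyte members 2 of 6 (4.42%), with 0 higher in each of these classes (all genes 3.44%, 1.24%, 7.06%, 3.35% and 5.89%). Outside inhibitory neurons, the classes of this paragraph held 94 to 330 nuclei per library.

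Among the excitatory neurons, 7 of 57 members were lower by 1.5-fold or more in dentate granule cells (all genes 4.53%), 7 of 56 in CA1 (3.08%), 2 of 51 in CA3 (3.02%) and 3 of 58 in nuclei of no assigned region (3.10%). In none of these was a member higher by as much (0.871%, 1.61%, 2.05% and 1.59% of all genes). *Hsp90ab1* had 178 CPM in PS19 and 120 CPM in PZKO dentate granule cells (−0.57), 162 and 105 CPM in CA1 (−0.63) and 146 and 97.0 CPM in CA3 (−0.59). *Hspa8* had ratios of −0.74, −0.68 and −0.54 in the same 3 groups. Dentate granule cells numbered 1009 nuclei in PS19 and 514 in PZKO, so that the sums over excitatory neurons mix regions in different proportions, while both genes were lower within each of these 3 groups. Nuclei of no assigned region numbered 1030 and 1740, and neither gene was lower by 1.5-fold there. No value is given here for a cluster matched to cortex or subiculum (110 and 151 nuclei). For *Dnajc6*, *Dnajc10*, *Dnajc21* and *Dnajc24* no ratio within regions is given, and the part of the mix in their ratios was not tested.

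The ratio of a member moved with the length of its gene. Members that span under 20 kb were lower in 16 of 16 cases in microglia, 22 of 23 in astrocytes, 21 of 23 in oligodendrocytes and 23 of 25 in excitatory neurons, with medians of −0.45, −0.34, −0.41 and −0.35. Members of 20 kb or more had medians of 0.02, −0.13, −0.10 and −0.08 and were below 0 in 14 of 29, 24 of 33, 20 of 32 and 24 of 33 cases. *Hsp90ab1* spans 5.5 kb, *Hspa8* 9.10 kb and *Cryab* 5.31 kb, while *Dnajc6* spans 146 kb and *Hspa12a* 148 kb. The same order was present over all genes tested, with medians of −0.17, −0.23, −0.20 and −0.18 below 20 kb and 0.04, 0.02, 0.04 and 0.00 at 20 kb or more. For all genes the share below 0 at each length is not given. Across the tested members, Spearman's rho between span and ratio was 0.64 in microglia (45 genes), 0.55 in astrocytes (56), 0.62 in oligodendrocytes (55) and 0.57 in excitatory neurons (58). Over all genes it was 0.43, 0.52, 0.50 and 0.41. These are correlations across genes of the same libraries, and genes are not independent replicates. The part of gene length in the differences of single members was not tested.

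**Figure D5:**
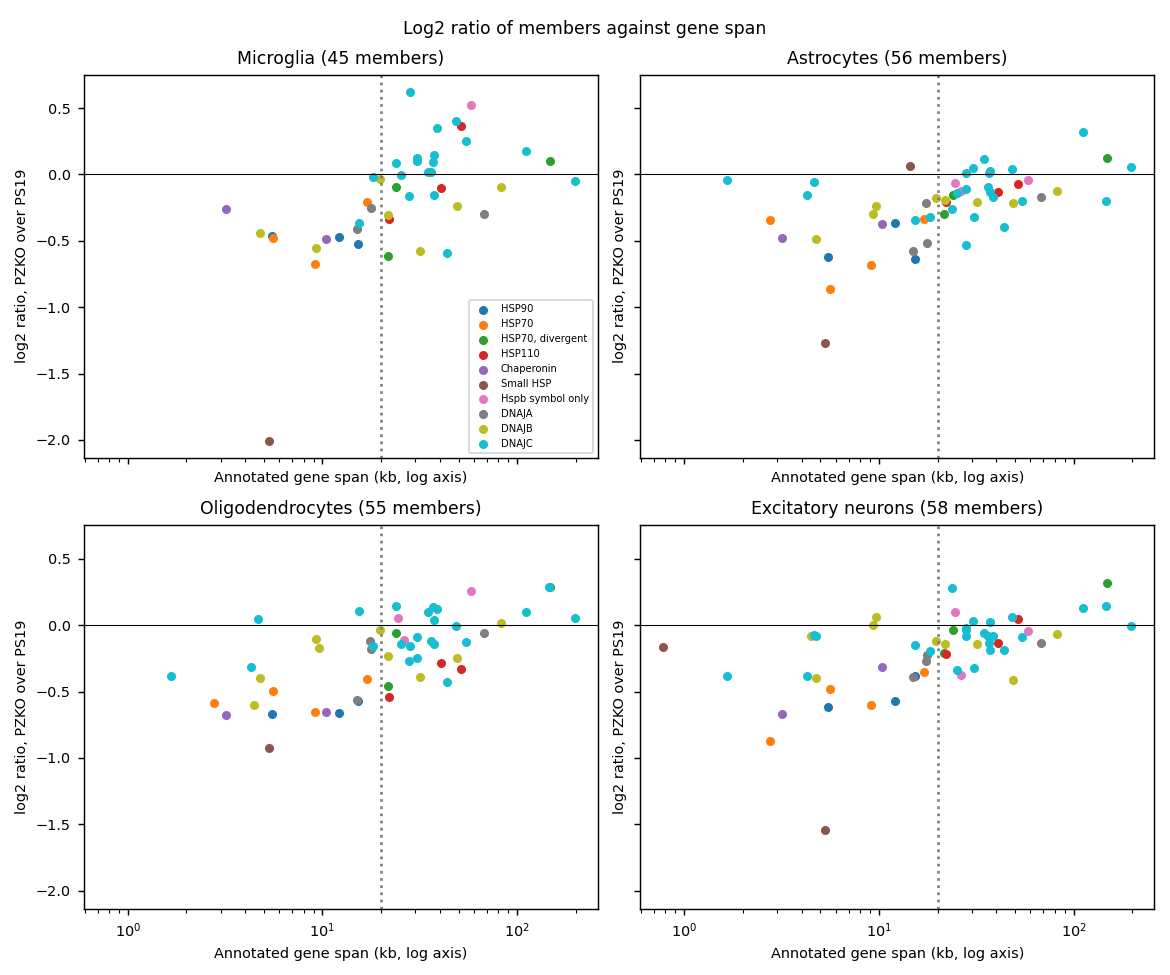
Log2 ratio of PZKO over PS19 of each tested chaperone gene against the span of the gene in kb (logarithmic axis, dotted line at 20 kb), coloured by family, in microglia, astrocytes, oligodendrocytes and excitatory neurons. Genes under 20 kb lie mostly below 0, with medians of −0.45, −0.34, −0.41 and −0.35, and longer genes lie on both sides of 0.

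Other genes of the pathway were counted from lists of co-chaperones and chaperones outside the families above. The TRiC chaperonin, which folds actin and tubulin in the cytosol, was below 0 with all 8 subunits in microglia, astrocytes, oligodendrocytes, excitatory neurons and inhibitory neurons, with medians of −0.35, −0.27, −0.41, −0.31 and −0.33. In endothelial cells 4 of 8 were below 0. For the counts of this paragraph the share of all genes below 0 in each class is not given. Of the 25 genes of the HSF1 axis and the HSP70 and HSP90 co-chaperones, 14 of 18 tested were below 0 in microglia (median −0.18), 23 of 24 in astrocytes (−0.32), 19 of 22 in oligodendrocytes (−0.24) and 20 of 24 in excitatory neurons (−0.23). *Bag3*, which links HSP70 to autophagy, was lowest in this list in microglia (−0.94) and excitatory neurons (−0.78), and *Hsf1* itself was highest in microglia (0.19). Chaperones of the ER and mitochondria were below 0 in 9 of 11, 10 of 12, 11 of 12 and 12 of 13 cases in the same 4 classes, with medians of −0.31, −0.34, −0.34 and −0.30. Ribosomal protein genes had lower medians than these lists, at −0.45, −0.53, −0.47 and −0.47, and all 76 or 77 tested were below 0 in each of the 4 classes.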

How the data were processed

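Single-nucleus 3′ libraries of pooled, snap-frozen hippocampus were sequenced for 1 PS19 and 1 PZKO sample. The authors deposited UMI counts per gene and nucleus as whole numbers, made with Cell Ranger on mm10 (7.0.1 in the submitters' processing notes, 8.0.1 in the file header). Whether UMIs were counted by strand is not given in the sources used here. The SoupX correction, nucleus filter and DoubletFinder step of the methods are not part of the deposited counts.

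Nuclei with at least 600 UMIs, 300 genes and at most 5% mitochondrial UMIs were kept, and the highest-scoring Scrublet doublets were removed at 0.8% per 1000 nuclei. Nuclei were clustered with scanpy 1.11.5 and leidenalg 0.10.2 (2000 variable genes without the members, 30 components, 20 neighbours, resolution 1) and named by marker lists, each cluster needing at least 3 detected markers. The cut-offs that leave a cluster unnamed were chosen with the clusters in view.

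UMIs were summed per class and library and scaled to CPM. Ratios have exact conditional binomial (Clopper-Pearson) 95% intervals from scipy 1.17.1, for counting error only, and were given where a gene had 100 UMIs or more in the sum of the libraries. UMIs are not independent of the animal, and no test was made. The interval and the 1.5-fold cut-off were tried on simulated independent counts for the genes of microglia. That simulation holds no difference between animals or libraries and no free RNA, so it cannot show how these bear on the ratios. Named genes are a core list, the 3 lowest and 3 highest members in 4 classes ranked by the interval's end closer to 0, the 3 members with the highest CPM in each class and the member most above its median class. Members named besides these were chosen after their values were seen. Members and lists were chosen with earlier results of these data known. Alternatives were edgeR 4.0.16 TMM factors, DESeq2 1.42.0 size factors, other minimums, filters, doublet settings and clusterings, the mean over nuclei and the subtraction of 2 ambient profiles, 1 of them chosen after seeing the data.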

Additional observations from a re-analysis of the deposited data

Results flagged for a closer look

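Among microglia, astrocytes, oligodendrocytes and excitatory neurons, 3 members had intervals of the ratio of PZKO over PS19 on opposite sides of 0, and the difference between the classes was not tested. *Dnajc10*, an ER J-domain protein with thioredoxin domains that reduces disulfide bonds, had a log2 ratio of 0.35 (0.05 to 0.65, 169 and 221 UMIs) in microglia and −0.08 (−0.14 to −0.02, 3949 and 5975 UMIs) in excitatory neurons. *Dnajc21*, which acts in ribosome assembly, had 0.28 (0.22 to 0.34) in excitatory neurons and −0.26 (−0.51 to −0.01) in astrocytes. *Dnajc24*, which takes part in the synthesis of diphthamide, had 0.14 (0.01 to 0.27) in oligodendrocytes and −0.14 (−0.21 to −0.07) in excitatory neurons. None of these ratios was past 1.5-fold, and the sides are set against 0, not against the median of all genes in a class. The share of all genes with such opposed intervals was not counted, so these members cannot be set against other genes. With the other named classes included, *Dnajb6*, *Dnajc7*, *Dnajc13* and *Hspa4* had intervals on both sides of 0 as well.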

How the results depend on the processing

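No paired analysis was possible because there is 1 library per genotype. For the same reason no replicate could be left out. Of 1420 values that 114 single-gene ratios took under 13 alternatives (12 planned), 1281 stayed within their interval, 136 moved outside it and 3 were ratios past 1.5-fold that changed sign. The 22 ratios past 1.5-fold kept their sign in 270 of 273 values and stayed past 1.5-fold in 220. A minimum of 20 UMIs and no minimum change only which genes are counted and could not move a single ratio. Their values, 114 each, are among those that stayed in these counts. The cause was not tested where a value moved. These 3 came from subtracting the profile of the cluster with few UMIs, with *Cryab* at 0.38 in microglia and 1.98 in excitatory neurons and *Hspa2* at 0.46 in oligodendrocytes. Both *Cryab* values rest on the few PS19 UMIs left after it. Ratios under 1.5-fold changed sign too, under that subtraction among others. After it *Hsp90aa1* was at 0.72 in microglia and 0.51 in astrocytes, and *Hsp90ab1* at 0.17 and *Hspe1* at 0.10 in microglia. *Hsph1* was at 1.58 in microglia and 0.45 in astrocytes, and *Hsph1* and *Hspa5* at 0.03 in oligodendrocytes. These values have no interval, and the share of UMIs subtracted was larger in PS19 than in PZKO in each of these classes.

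The counts of members lower by 1.5-fold or more moved as follows. They are given without the share of all genes under the same setting and cannot be set against it. In microglia (4) they were 2 with TMM factors, DESeq2 size factors or each library clustered on its own, 7 with a minimum of 20 UMIs, 10 with no minimum and 0 after subtraction of the profile of the cluster with few UMIs. In astrocytes (5) they were 3 with TMM, 2 with DESeq2, 8 with a minimum of 20 UMIs, 10 with no minimum, 26 after subtraction of the profile of all barcodes and 1 after that of the cluster. In oligodendrocytes (8) they were 3 with DESeq2, 15 with no minimum, 5 with a stricter filter on nuclei and 1 after subtraction of the cluster. In excitatory neurons (5) they were 3 with TMM, the stricter filter, the profile of all barcodes or separate clustering, 2 with DESeq2, 10 with a minimum of 20 UMIs, 12 with no minimum and 0 after subtraction of the cluster. The counts of members higher by 1.5-fold were, in microglia (1), 2 with no minimum or the stricter filter, 0 with doublets kept and 5 after subtraction of the cluster. They were 1 in astrocytes and 1 in excitatory neurons after that subtraction, 2 in oligodendrocytes, 1 in oligodendrocytes with no minimum, and in excitatory neurons 1 with a minimum of 20 UMIs and 3 with no minimum.

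The member medians of the 4 classes stayed below 0 under every alternative that gave a value. They were −0.62 in astrocytes with the profile of all barcodes subtracted, and −0.03, −0.12, −0.03 and −0.09 in microglia, astrocytes, oligodendrocytes and excitatory neurons after subtraction of the cluster. The profile of all barcodes gave no value in microglia and oligodendrocytes, where the Ttr-scaled share to subtract was above the whole (1.11 to 1.49). In astrocytes that share was 0.573 in PS19 and 0.778 in PZKO. TMM and DESeq2 moved the median of all genes by less than 0.1. Small classes and genes under 100 UMIs limit what the depth can show.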

Other observations

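The members took 0.572% of UMIs in PS19 and 0.505% in PZKO endothelial cells and 0.586% and 0.482% in ependymal cells, against 0.303% and 0.277% in excitatory neurons. In microglia the shares were 0.468% and 0.412%, in astrocytes 0.334% and 0.281% and in oligodendrocytes 0.468% and 0.391%. Immediate early genes of excitatory neurons stood on the other side of the chaperone genes, with 11 of 13 above 0 and a median log2 ratio of 0.67. For all genes the share above 0 is not given. The median over single nuclear long noncoding RNAs was 0.13 in the same nuclei and 0.39 in microglia. Their summed share of UMIs went the other way. It was 10.9% in PS19 and 9.12% in PZKO excitatory neurons, and 4.49% and 4.17% in microglia.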
